A study of Homo sapiens with 16 samples.

Results

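TRIP13 and 9 further genes of the chromosome band 5p15.33 around BRD9 were examined: PLEKHG4B, CCDC127, PDCD6, EXOC3, CEP72, TPPP, ZDHHC11, TRIP13, SLC12A7 and CLPTM1L. These 10 genes, of 57820 in the files, were named by their symbols. They were chosen by position beside BRD9 and with earlier results of the BRD9 KO against LacZ comparison known, for TRIP13 on all days and for ZDHHC11 on day 1. The values of that comparison are therefore a description and carry no test. All 10 genes passed the filter on low counts, which kept 15027 genes.

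RNA was sequenced from G401, an established cell line of a kidney rhabdoid tumor. The BRD9 KO groups had BRD9 deleted by CRISPR and the control groups carried a guide against the bacterial gene LacZ, and cells were taken on days 1, 2, 3 and 5. Each of the 8 groups held 2 libraries, 16 in all. No drug or other agent is labelled, and all groups shared the line and its medium. In the study's methods guides entered Cas9-expressing lines by lentivirus under puromycin selection, with no clone named for these libraries, and the RNA-seq replicates are called biological. The library totals were 9185866 to 16560749 expected counts, the smallest in BRD9 KO day 1 replicate 1. BRD9, the targeted gene, stood at 16.6 to 25.9 CPM (counts scaled to the library total by TMM, per 1e6) in BRD9 KO and 45.8 to 64.5 CPM in LacZ libraries. The labelled cell type was checked on markers: SMARCB1, which rhabdoid tumors lose, was at 0 to 0.19 TPM (a share of transcripts, so a level per length), VIM at 1366 to 1922 and KRT8 at 2806 to 5427 TPM, while the blood markers PTPRC, CD3E and HBB and the endothelial marker KDR were at 0 in all libraries, and CDH5, VWF and ITGAM reached at most 0.03, 0.66 and 2.09 TPM.

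BRD9 is a bromodomain subunit of a SWI/SNF chromatin remodeling complex. TRIP13 is an AAA+ ATPase that turns the checkpoint protein MAD2 from its active to its inactive form, with the adaptor p31comet, and so helps to switch off the spindle checkpoint; it also remodels HORMA-domain proteins in meiosis. The other genes have unrelated roles. CEP72 and TPPP serve centrosomes and microtubules, EXOC3 and PDCD6 serve vesicle traffic and calcium sensing, PLEKHG4B is a protein with a pleckstrin homology domain, ZDHHC11 a palmitoyltransferase of the DHHC family, SLC12A7 a potassium-chloride cotransporter and CLPTM1L a multi-pass membrane protein linked to cisplatin resistance.

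TRIP13 and BRD9 lie head to head. On GRCh37, TRIP13 (ENSG00000071539.9) spans chr5:892999-919472 on the plus strand, and BRD9 (ENSG00000028310.13) spans chr5:850406-892916 on the minus strand, so that 82 bases separate their starts. The 300 bases chr5:892749-893048, read on the plus strand, are shown because they hold the start of both genes. Capitals mark the 82 bases between the starts, the lower-case bases before them lie in BRD9 and those after them in TRIP13.
BRD9-TRIP13: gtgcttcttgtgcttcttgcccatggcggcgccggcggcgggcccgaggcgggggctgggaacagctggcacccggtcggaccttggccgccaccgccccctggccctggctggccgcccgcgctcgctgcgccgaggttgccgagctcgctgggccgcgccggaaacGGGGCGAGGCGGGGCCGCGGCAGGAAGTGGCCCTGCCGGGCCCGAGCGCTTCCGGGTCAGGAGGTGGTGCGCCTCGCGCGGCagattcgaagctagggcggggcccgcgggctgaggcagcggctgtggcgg
G and C made up 78.0% of the window and 81.7% of the capitals, against a median of 58.3% over the 27305 windows of 250 bases before to 50 after a start in RefSeq's GRCh38.p14 table. The TRIP13 window of that table held the same letters. The GC box GGGCGG, searched on both strands, occurred 3 times in the window, at offsets -157, -136 and 13 from the TRIP13 start, and 44.6% of all windows held at least 1. The CCAAT box, likewise on both strands, did not occur in it and was held by 35.7% of all windows. The cell cycle element core, searched in the form TTTGAA alone, did not occur either and was held by 15.4%. The bases TTCGAA, which the printed window holds just after the TRIP13 start, were not searched for. The palindromic E-box CACGTG, held by 7.43%, was also not found. All 10 genes matched the RefSeq table. Among the other 9, the form TTTGAA occurred in the CEP72 window alone, the CCAAT box in those of PDCD6 and TPPP, and the E-box in that of SLC12A7. Every one of these windows was above the median GC content, from 59.0% for ZDHHC11 to 83.0% for TPPP. The GC box was absent from the windows of ZDHHC11 and of CCDC127, which had 75.0% GC, and occurred 10 times in that of TPPP.

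The levels of the 10 genes ranged widely. TPM, which is per length, was used to compare genes. In the 8 LacZ libraries PDCD6 stood highest at 130 ± 9.6 TPM (SD, n = 8 over the 4 days), followed by CLPTM1L at 108 ± 6.5 and TRIP13 at 58.8 ± 8.4. PLEKHG4B was at 28.7 ± 2.9, EXOC3 at 20.95 ± 1.7, SLC12A7 at 14.2 ± 1.1, CEP72 at 10.9 ± 2.0, CCDC127 at 8.02 ± 1.3, ZDHHC11 at 6.27 ± 1.5 and TPPP at 2.98 ± 0.56 TPM. The ranges of neighbours in this order overlapped for PDCD6 and CLPTM1L, SLC12A7 and CEP72, CEP72 and CCDC127, and CCDC127 and ZDHHC11, and were separate for the other 5 neighbouring pairs. In LacZ libraries TRIP13 was at 1.25 to 1.88 times the TPM of BRD9, and in BRD9 KO libraries, where BRD9 is the deleted gene, at 2.44 to 4.40 times.

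**Figure D1:**
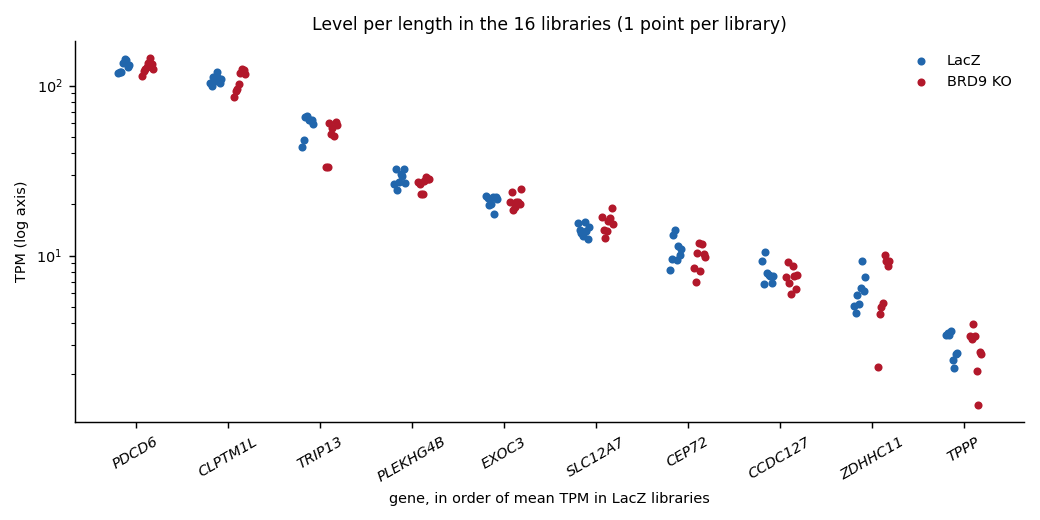
TPM on a log axis of the 10 genes in the 16 libraries, 1 point per library, with LacZ in blue and BRD9 KO in red and genes in order of their mean in LacZ libraries. PDCD6 and CLPTM1L stand highest and TPPP lowest, and the 2 lowest BRD9 KO points of TRIP13, 33.0 and 33.4 TPM, are those of day 1.

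After BRD9 deletion TRIP13 lay below the LacZ control on days 1, 2 and 3 and level with it on day 5. On day 1 the BRD9 KO libraries held 48.9 and 48.8 CPM of TRIP13 and the LacZ libraries 63.1 and 64.7 CPM. Both BRD9 KO libraries lay below both LacZ libraries, and the mean was 76.4% of the control. In bulk libraries a lower level in every cell and fewer cells with the RNA cannot be told apart. On day 2 the BRD9 KO libraries held 83.7 and 79.1 CPM and the LacZ libraries 87.9 and 91.9 CPM, again without overlap. On day 3 they held 79.99 and 73.7 CPM against 89.1 and 87.5 CPM. On day 5 the 4 libraries lay between 87.0 and 87.4 CPM and the groups overlapped. The fitted day 1 difference was -0.39 on the log2 scale (SE 0.051), and the day 3 difference -0.19 (SE 0.043), where leaving out 1 library gave -0.26 to -0.14. The day 5 difference was 0.0016 (SE 0.043), so the level on that day was 100.1% of the control.

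**Figure D2:**
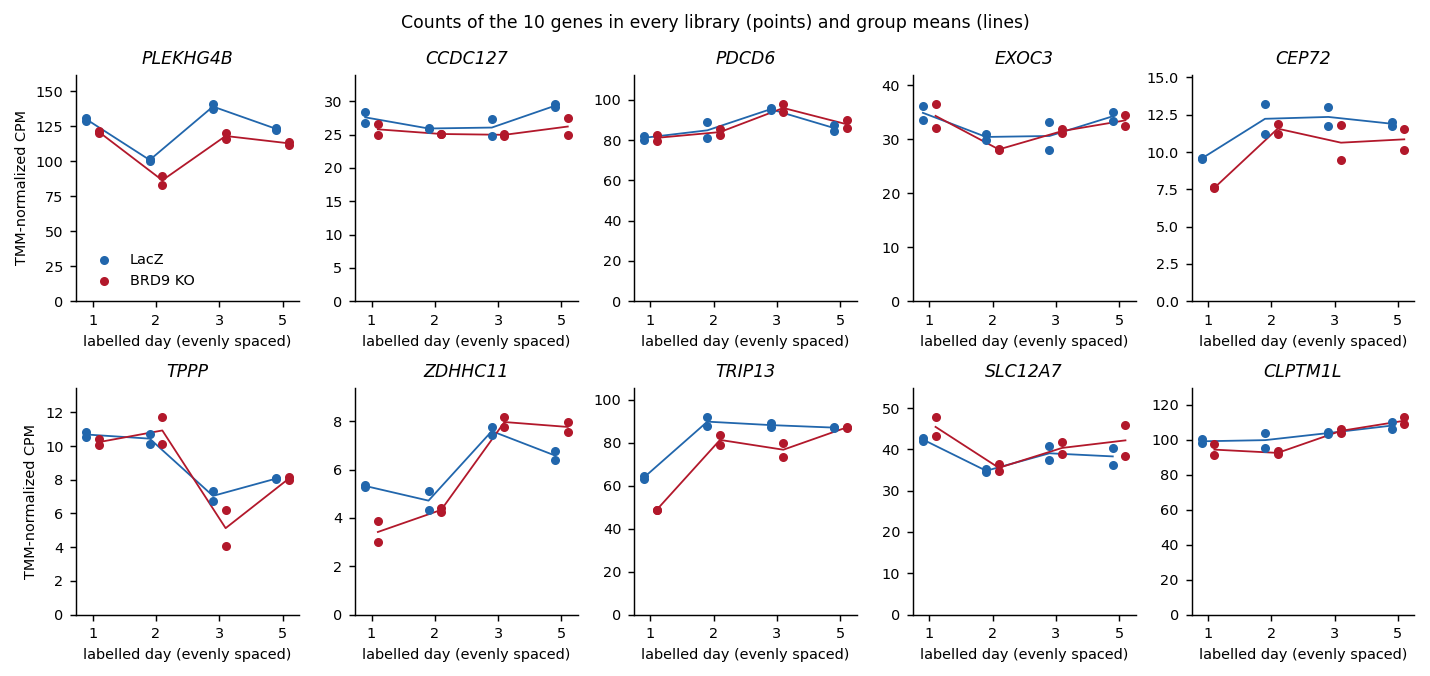
TMM-normalized CPM of the 10 genes on the 4 labelled days, 1 point per library and lines through the mean of the 2 libraries, with LacZ in blue and BRD9 KO in red; each panel has its own axis from 0. TRIP13 rose from day 1 to day 2 in both arms, from 63.9 to 89.9 CPM in LacZ and from 48.8 to 81.4 CPM in BRD9 KO cells.

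Most of the TRIP13 change over time fell between days 1 and 2. The log2 ratio of the group means from day 1 to day 2 was 0.49 in LacZ and 0.74 in BRD9 KO cells, and the libraries of the 2 days did not overlap in either. From day 2 to day 3 it was -0.026 in LacZ and -0.083 in BRD9 KO cells, with overlap in both. From day 3 to day 5 it was -0.019 in LacZ and 0.18 in BRD9 KO cells. These steps were chosen after the values were seen and have no test.

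The next neighbour on the other side of BRD9, ZDHHC11 (chr5:795720-859088, minus strand), also differed by day. On day 1 it was at 2.98 and 3.86 CPM in BRD9 KO and at 5.27 and 5.38 CPM in LacZ libraries, a log2 fold change of -0.61 (SE 0.17) without overlap. The lowest of these values rested on 27.5 expected counts, in the library with the smallest total; without that library the log2 fold change was -0.47, and without the other BRD9 KO library -0.83. On day 2 the groups overlapped at 4.27 and 4.40 against 4.32 and 5.11 CPM. On day 5 the BRD9 KO libraries were the higher ones, at 7.99 and 7.55 CPM against 6.40 and 6.77 CPM, a log2 fold change of 0.24 (SE 0.14). ZDHHC11 thus lay below the control on day 1 and above it on days 3 and 5, each time without overlap. ZDHHC11 overlaps the 3' end of BRD9 by 8683 bases on the same strand, and its paralog ZDHHC11B lies 108.1 kb from the BRD9 start; the part of shared reads in these values was not tested.

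PLEKHG4B, the gene farthest from BRD9 at 800.6 kb, was lower in BRD9 KO cells on all 4 days. It was at 121.6 and 119.9 CPM in BRD9 KO and 131.0 and 128.7 CPM in LacZ libraries on day 1, and at 89.7 and 83.0 against 99.8 and 101.8 CPM on day 2. On day 3 it was at 116.0 and 119.9 against 140.7 and 137.2 CPM, and on day 5 at 111.5 and 113.9 against 124.0 and 122.0 CPM. In CPM no BRD9 KO library reached the lower LacZ library of its day, and the level was 84.9% to 92.9% of the control. The log2 fold changes were -0.11 (SE 0.039), -0.22 (SE 0.042), -0.24 (SE 0.038) and -0.12 (SE 0.039). Of all genes tested, 423, or 2.81%, were lower without overlap on all 4 days, and 346, or 2.3%, higher; PLEKHG4B was the only one of the 10 genes among them. On log2(TPM + 1), where RSEM's effective length of the gene varied between libraries from 6062 to 8089 bases, the differences were -0.13, -0.16, -0.083 and -0.054. In TPM the groups were separate on days 2 and 3 but overlapped on days 1 and 5. They stood at 27.12 and 26.43 in BRD9 KO against 26.44 and 32.48 in LacZ libraries on day 1. On day 5 they stood at 28.16 and 28.24 against 32.13 and 26.74 TPM.

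The microtubule genes CEP72 and TPPP were low and more variable. CEP72, a centrosomal protein, was at 7.63 and 7.58 CPM in BRD9 KO and 9.55 and 9.58 CPM in LacZ libraries on day 1, a log2 fold change of -0.33 (SE 0.13). Its values were below 0 on all 4 days, with separate groups on days 1 and 5 alone. Leaving out 1 library gave -0.19 to 0.044 on day 2, above 0 without LacZ replicate 2, -0.38 to -0.069 on day 3 and -0.23 to -0.043 on day 5. TPPP, which promotes tubulin polymerization, was at 6.21 and 4.04 CPM in BRD9 KO and 7.35 and 6.73 CPM in LacZ libraries on day 3, a log2 fold change of -0.42 (SE 0.16). That value rested on 1 library: it was -0.18 without BRD9 KO day 3 replicate 2 and -0.80 without replicate 1. On day 5 TPPP lay between 7.97 and 8.18 CPM in all 4 libraries.

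The remaining 5 genes had log2 fold changes between -0.15 and 0.12. PDCD6, a calcium-binding penta-EF-hand protein, had log2 fold changes of -0.015 to 0.028 and overlapping groups on every day. EXOC3, a subunit of the exocyst that tethers secretory vesicles, had values of -0.11 to 0.045 and was lower without overlap on day 2 alone. CCDC127, a coiled-coil protein, had values of -0.15 to -0.047, with the BRD9 KO libraries lower without overlap on days 1, 2 and 5. With limma on log2(TPM + 1) CCDC127 was at 0.055, -0.45, 0.079 and -0.0355 on days 1, 2, 3 and 5. On day 3 it was 0.0082 in the fit without LacZ replicate 2. CLPTM1L went from -0.11 to 0.04 and was lower without overlap on days 1 and 2. SLC12A7 had values of 0.034 to 0.12 and was higher without overlap on day 1 alone. With 1 library left out SLC12A7 ranged from 0.025 to 0.17 on day 1, -0.0088 to 0.066 on day 2, -0.0071 to 0.12 on day 3 and 0.0074 to 0.27 on day 5, and it was at -0.0097 on day 2 with limma on log2(TPM + 1).

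**Figure D3:**
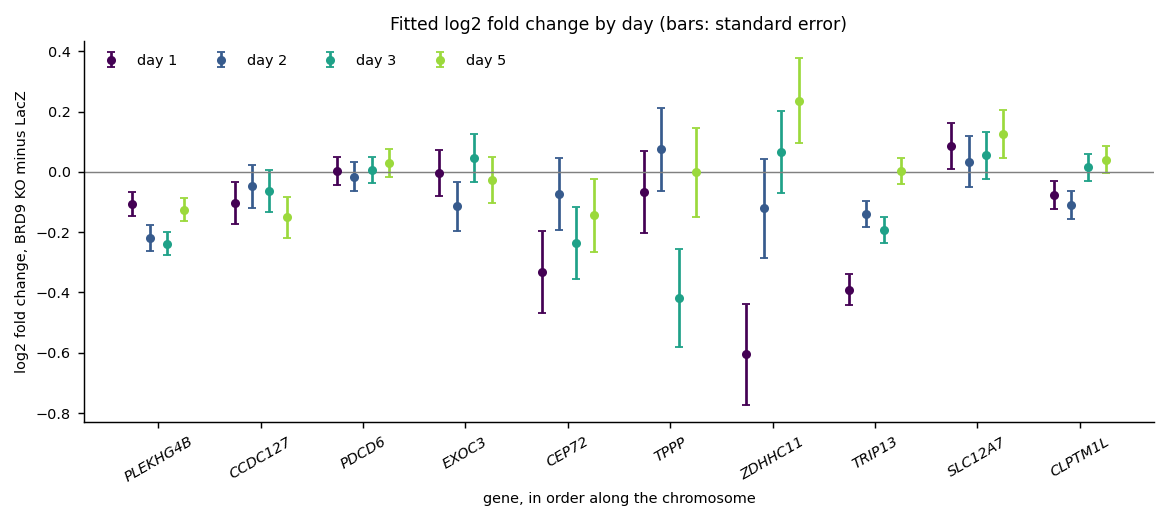
Fitted log2 fold change of BRD9 KO minus LacZ for the 10 genes in order along the chromosome, with 1 point for each of the 4 days and bars for the standard error. TRIP13 runs from -0.39 on day 1 to 0.0016 on day 5, ZDHHC11 from -0.61 to 0.24, and PLEKHG4B lies below 0 on every day.

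Counted by the same fit (edgeR, adjusted p under 0.05), 1 of the 10 genes was called on day 1 (TRIP13, lower), 1 on day 2 (PLEKHG4B, lower), 2 on day 3 (PLEKHG4B and TRIP13, lower) and 1 on day 5 (PLEKHG4B, lower). Of all 15027 genes tested, 0.539%, 2.7%, 10.4% and 15% were called on these days. Groups without overlap were seen for 8, 5, 4 and 4 of the 10 genes, beside 41%, 42.5%, 51.2% and 54.6% of all genes. These counts come from the comparison that was known when the genes were chosen, and nothing is read from them. The PLEKHG4B call on day 5 was not made in any fit without 1 of the 4 libraries, and the one on day 2 was missing in the fits that left out replicate 2 of either guide. On day 3 the count was 1 in the fits without replicate 2 of BRD9 KO or replicate 1 of LacZ, and 3 in the fit without replicate 1 of BRD9 KO.

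By position, the 7 genes on the telomeric side of BRD9 had median log2 fold changes of -0.104, -0.073, -0.063 and -0.028 on days 1, 2, 3 and 5, and the 3 on the centromeric side -0.078, -0.109, 0.015 and 0.04. The median over all genes was 0, -0.0003, -0.0001 and -0.0008. The list of 18 further genes of the band included BRD9 itself and held 11 that were tested. With BRD9 left out, 10 of these were added to the 10 genes, 5 on each side. The telomeric medians were then -0.105, -0.06, -0.108 and -0.076 over 12 genes, and the centromeric ones 0.043, 0.018, 0.018 and 0.062 over 8. SDHA, the flavoprotein subunit of succinate dehydrogenase at 674.5 kb on the telomeric side, was lower on every day without overlap, from 182.9 to 170.1 CPM in the means of day 1 and from 185.4 to 166.1 CPM on day 5. LPCAT1, a lysophospholipid acyltransferase at 631.2 kb on the centromeric side, had log2 fold changes of 0.0017 to 0.092. It was higher without overlap on days 1, 3 and 5. NKD2, an antagonist of Wnt signalling and the nearest tested gene of the list past TRIP13, had values of 0.02 to 0.57 with standard errors of 0.18 to 0.20. NKD2 was higher without overlap on days 1, 2 and 5. TERT, the catalytic subunit of telomerase, had 0.27 to 0.50 on 10 to 31 expected counts with standard errors of 0.35 to 0.40. Its groups were separate on days 1, 3 and 5. AHRR and ZDHHC11B changed sign between days, as did SLC9A3 and C5orf55, each at under 6 CPM in its group means. MRPL36 and NDUFS6, genes of mitochondrial translation and respiration at 908.6 kb, had values of -0.057 to 0.049 and -0.084 to -0.030. MRPL36 was lower without overlap on day 5 alone, and NDUFS6 on days 1 and 3.

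**Figure D4:**
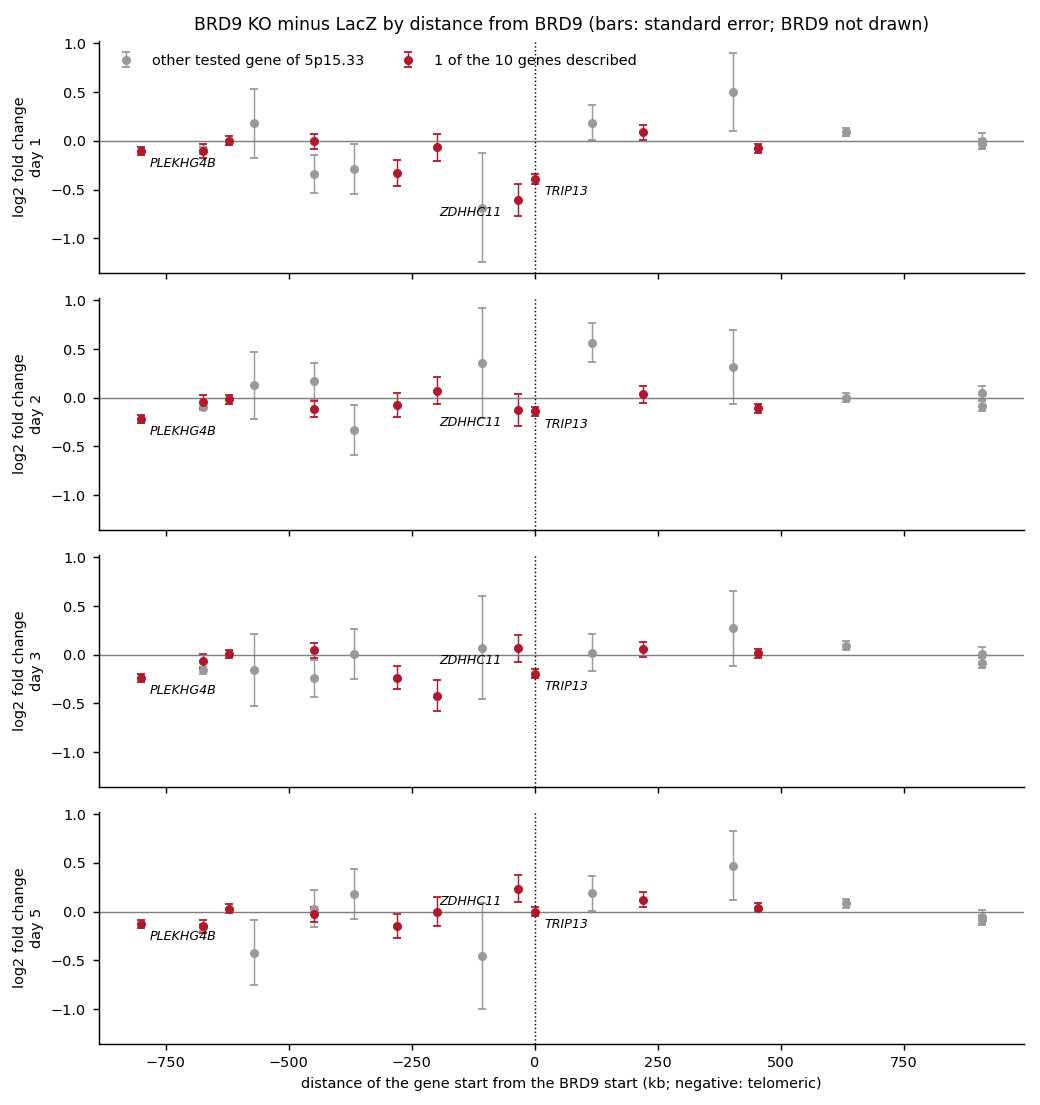
Log2 fold change of BRD9 KO minus LacZ (bars: standard error) against the distance in kb of each gene's start from the BRD9 start, negative on the telomeric side, in 1 panel per day, with the 10 genes in red, the 10 other tested genes of the band in grey, and BRD9 not drawn. TRIP13 at 0.1 kb and ZDHHC11 at 33.8 kb are the lowest red points on day 1 and lie at or above 0 on day 5.

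Whether the genes changed with time in control cells was tested in LacZ libraries, day 5 minus day 1. TRIP13 was higher on day 5, at 87.2 and 87.0 CPM against 63.1 and 64.7 CPM on day 1, a log2 fold change of 0.45 (SE 0.045; edgeR quasi-likelihood fit, adjusted p = 7.75e-07). All 4 libraries of TRIP13 kept that order, and the value stayed between 0.42 and 0.46 when 1 library was left out. In all, 3 of the 10 genes passed the test, TRIP13 and CLPTM1L higher and TPPP lower, beside 25.6% of all genes tested. The median over the 10 genes was 0.086 and over all genes -0.001. CLPTM1L rose from 99.1 ± 1.5 to 108 ± 2.8 CPM (SD, n = 2), a log2 fold change of 0.12 (SE 0.045, edgeR adjusted p = 0.048). TPPP fell from 10.7 ± 0.19 to 8.07 ± 0.049 CPM (SD, n = 2), a log2 fold change of -0.41 (SE 0.14, edgeR adjusted p = 0.042). The CLPTM1L and TPPP calls were both lost in each of the 4 fits without 1 LacZ day 1 or day 5 library, with edgeR adjusted p of 0.081 to 0.28 for CLPTM1L and 0.097 to 0.16 for TPPP, and both were lost with DESeq2. CEP72 had 0.31 (SE 0.12, edgeR adjusted p = 0.072) and ZDHHC11 0.30 (SE 0.15, edgeR adjusted p = 0.17). The LacZ libraries of both days also enter the comparison known when the genes were chosen, for TRIP13 on days 1 and 5 and for ZDHHC11 on day 1.

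In BRD9 KO cells, day 5 minus day 1 shares no library with the LacZ contrast. The same test called 4 of the 10 genes, all higher: TRIP13, ZDHHC11, CEP72 and CLPTM1L. Of all genes tested, 35.1% were called. As shares of the library total, 17.5% of all genes tested were higher and 17.5% lower. The median over the 10 genes was 0.075 and over all genes 0.011. TRIP13 went from 48.8 ± 0.058 to 87.2 ± 0.26 CPM (SD, n = 2), a log2 fold change of 0.84 (SE 0.048). ZDHHC11 went from 3.42 ± 0.62 to 7.77 ± 0.32 CPM, a log2 fold change of 1.14 (SE 0.16). The low day 1 values of both were known when they were chosen, so no p is given for them. For the same reason nothing is read from the count of 4 genes called. CEP72 rose from 7.60 ± 0.036 to 10.85 ± 0.97 CPM (SD, n = 2), a log2 fold change of 0.50 (SE 0.13, edgeR adjusted p = 0.0064), which missed the threshold with replicate 2 of day 1 or replicate 1 of day 5 left out (edgeR adjusted p = 0.062 and 0.052), with DESeq2 (adjusted p = 0.052) and with limma (adjusted p = 0.16). CLPTM1L rose from 94.4 ± 4.7 to 111 ± 2.7 CPM (SD, n = 2), a log2 fold change of 0.24 (SE 0.045, edgeR adjusted p = 0.00036). TPPP had -0.34 (SE 0.14, edgeR adjusted p = 0.077), with day 5 libraries at 8.18 and 7.97 CPM below day 1 libraries at 10.4 and 10.1 CPM. SLC12A7 had -0.11 (SE 0.077, edgeR adjusted p = 0.28) and passed the test, at -0.23, in the fit without BRD9 KO day 5 replicate 1. The difference between the arms was not tested, since it is made of the known day 1 and day 5 differences.

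**Figure D5:**
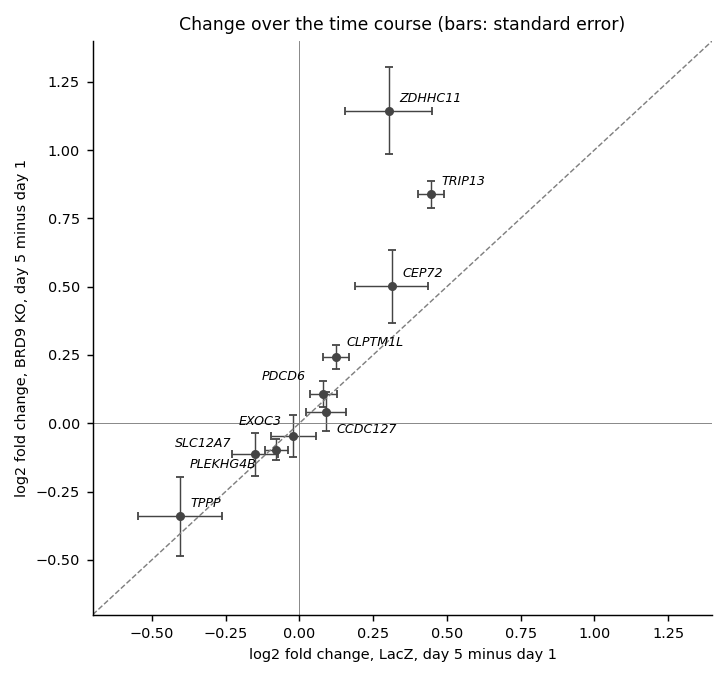
Log2 fold change of day 5 minus day 1 in BRD9 KO cells (vertical) against that in LacZ cells (horizontal) for the 10 genes, with bars for the standard error and a dashed line of equal change. ZDHHC11 (1.14 against 0.30), TRIP13 (0.84 against 0.45) and CEP72 (0.50 against 0.31) lie above the line, and TPPP is lowest on both axes.

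RSEM gives each gene's count a posterior standard deviation, the spread left by reads that could come from several genes. It was 0 reads in every library for SLC12A7 and CLPTM1L, and at most 0.47 reads for PLEKHG4B. For TRIP13 it was 0.27 to 0.72 reads in BRD9 KO and 1.01 to 2.04 reads in LacZ libraries, without overlap, and at most 0.20% of the count. BRD9 had 0.74 to 1.53 and 1.44 to 2.41 reads. The expected counts behind the day 1 values of TRIP13 were 441.7 and 721.4 in BRD9 KO and 825.9 and 986.9 in LacZ libraries. ZDHHC11 had the largest share, 1.71% to 5.68% of its count. CEP72 and TPPP had the same posterior deviation, within 0.01 reads, in all 16 libraries, 0.61 to 1.83 reads. Their ends overlap by 7307 bases on opposite strands, and the library kit, as named, does not mark the strand, so reads of that stretch cannot be assigned to one of them by strand. EXOC3 overlaps a long noncoding gene by 5814 bases and SLC9A3 by 1482 bases, also on opposite strands, and had a posterior deviation of up to 1.58% of its count.

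Genes related to the 10 genes by process, partner or family were followed as lists, each read beside the shares of all genes called. Those were 12.7% higher and 12.9% lower with time (day 5 minus day 1) in LacZ cells, 17.5% higher and 17.5% lower with time in BRD9 KO cells, and 9.72% higher and 10.5% lower between the guides over the 4 days. Of 14 spindle checkpoint and MAD2 genes, listed for TRIP13, 10 were higher with time in LacZ cells and 0 lower. The median log2 fold change was 0.249 over the list and -0.001 over all genes. In BRD9 KO cells 5 of the 14 were higher and 0 lower, with a median of 0.144, beside 17.5% of all genes higher and 17.5% lower. Counted in either direction, about as large a share was called as among all genes, 35.1%. Averaged over the 4 days, 4 of the 14 were lower in BRD9 KO than in LacZ cells and 0 higher. Of all genes, 10.5% were lower and 9.72% higher in that contrast, and 20.2% were called in either direction. The list median was -0.056 and that of all genes -0.0001. CDC20, the activator of the anaphase-promoting complex and the most abundant of them at 177 TPM, had 0.37 in LacZ (SE 0.043, edgeR adjusted p = 4.58e-06) and -0.11 between the guides (SE 0.022). BUB1B, a checkpoint kinase-like protein, had 0.32 (SE 0.046, edgeR adjusted p = 4.51e-05) and -0.13 (SE 0.023). MAD2L1, which encodes MAD2, the substrate of TRIP13, had 0.38 in LacZ cells (SE 0.048, edgeR adjusted p = 1.11e-05) and -0.061 between the guides (SE 0.024).

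Of the 8 other exocyst genes, 4 were lower and 0 higher with time in LacZ cells (median -0.138), beside 12.9% of all genes lower, among them EXOC4 at -0.32 (SE 0.039) and EXOC6B at -0.31 (SE 0.054), and 1, EXOC5, was higher in BRD9 KO cells at 0.069 (SE 0.017), beside 9.72% of all genes. Of the 7 partners of PDCD6, 3 were higher in BRD9 KO cells over the 4 days (median 0.057), beside 9.72% of all genes, PEF1, its dimer partner, by 0.11 (SE 0.032), and SEC31A, a COPII coat subunit, by 0.051 (SE 0.016), while PDCD6 itself had 0.0056 (SE 0.023). ANXA11 was the 1 partner lower with time in LacZ cells, at -0.11 (SE 0.037).

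Of 10 tested centriolar satellite and pericentriolar genes, 1, CDK5RAP2, was lower in BRD9 KO cells at -0.096 (SE 0.021), and 1, CEP63, was higher with time in LacZ cells at 0.27 (SE 0.063). That is 1 of 10 in each, near the 10.5% and 12.7% of all genes. PCM1, the satellite scaffold, had -0.0045 (SE 0.017) between the guides. Among 7 tested genes of the TPPP family and abundant tubulins, 5 were higher and 1 lower with time in LacZ cells, beside 25.6% of all genes called, with TUBB2A at 0.86 (SE 0.047) and TUBA1A at -0.46 (SE 0.034), whereas TPPP fell. Between the guides, where 20.2% of all genes were called, 2 were higher and 2 lower, TUBB2A at 0.27 (SE 0.023) and TUBA1B at -0.10 (SE 0.0089).

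In the remaining families, 6 of 20 tested ZDHHC genes were higher and 0 lower in BRD9 KO cells over the 4 days (median 0.029), beside 9.72% of all genes higher, ZDHHC23 by 0.35 (SE 0.053) and ZDHHC18 by 0.15 (SE 0.025), while 2 were higher and 2 lower with time in LacZ cells, a share close to the 25.6% of all genes called. Of 4 tested PLEKHG genes other than PLEKHG4B, 3 were higher in BRD9 KO cells and 0 lower (median 0.158), beside 9.72% of all genes higher, PLEKHG2 by 0.26 (SE 0.032) and PLEKHG5 by 0.16 (SE 0.037). Of 6 tested SLC12 cotransporters, 2 were lower in BRD9 KO cells, beside 10.5% of all genes, SLC12A4 at -0.099 (SE 0.030) and SLC12A3, a gene at 0.31 TPM, at -1.91 (SE 0.55). CLPTM1, the paralog of CLPTM1L, had -0.015 (SE 0.024) between the guides and -0.043 (SE 0.047) with time in LacZ cells.

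The genes whose log2 CPM followed TRIP13 most closely over the 16 libraries, among the 10207 others whose log2 CPM averaged 3 or more, were MTHFD1L and PPIF (both Pearson r = 0.955), ATAD3A (0.945), PGAM5 (0.944) and TUBB6 (0.942). These 5 correlations are a description of libraries that share scaling, guide and day, and no p belongs to them. The closest to PLEKHG4B were TLL1 (0.949), PSMB9 and CXXC5 (both 0.946). PAPD7, ACTG1 and MAP7D1 were closest to ZDHHC11 at 0.935 to 0.95, EXOSC9, NUP88 and SLIRP to CEP72 at 0.901 to 0.917, and S100A16, PCF11 and SP1 to TPPP at 0.922 to 0.948. For PDCD6 they were RAB12, PLS3 and ARNTL2 (0.929 to 0.944), for CLPTM1L DNAJC5, HMGA1 and ATP13A1 (0.895 to 0.912), for SLC12A7 MARCH8, C20orf194 and SPATS2 (0.883 to 0.893), for EXOC3 B3GALT6, BTBD7 and PAPOLG (0.833 to 0.885), and for CCDC127 BCL7A, GLB1L2 and TIMM13 (0.811 to 0.884). No other gene among the 10 was in any of these groups, but ZDHHC11 averaged below 3 and so could not appear in them.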

How the data were processed

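RNA-seq of 16 G401 libraries was used. The authors made the libraries from total RNA with a NEBNext Ultra kit, mapped them to hg19 by STAR and quantified genes with RSEM; per the submitters' processing notes DESeq2 was also used, and versions are not given in the sources used here. The deposited expected count is RSEM's estimated count of reads per gene, not normalized. The TPM values and the posterior standard deviation of each count, a score in reads, were deposited by the authors from the same runs. Expected counts were rounded, filtered with filterByExpr (minimum count 10, minimum total 15; 15027 genes kept), TMM-normalized and fitted with edgeR 4.0.16 (glmQLFit, glmQLFTest; R 4.3.3), with a mean per group and 8 residual degrees of freedom. The common biological coefficient of variation was 0.023. Adjusted p-values are Benjamini-Hochberg over all genes tested, called under 0.05. A fold change is on the log2 scale.

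BRD9 KO was contrasted with LacZ on each day and over the 4 days, and day 5 with day 1 within each arm. The genes and lists were chosen with earlier results of these data known. Named were the 10 genes, BRD9, the tested genes of the band, in each list the most abundant gene by LacZ TPM and up to 2 called genes per direction with the smallest p in LacZ day 5 minus day 1 and in the mean BRD9 KO contrast, and the genes most correlated with each of the 10 (5 for TRIP13, 3 for the others). Coordinates are GRCh37, matched by Ensembl gene ID; sequence motifs were read from RefSeq windows. Alternatives were DESeq2 1.42.0, its size factors in edgeR, other filters, limma 3.58.1 on log2(TPM + 1), the posterior mean count, the contrast's libraries alone, a replicate block and each library left out. The fits were tested on simulated data.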

Additional observations from a re-analysis of the deposited data

Results flagged for a closer look

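ZDHHC11 was picked out because its difference between BRD9 KO and LacZ libraries went opposite ways on different days, with both BRD9 KO libraries below both LacZ libraries on day 1 and above them on days 3 and 5. The log2 fold change was higher by 0.672 on day 3 and by 0.841 on day 5 than on day 1. The difference between the days was not tested, since the day 1 value was known when the gene was chosen. The day 3 groups lay close together, at 7.78 and 8.17 CPM in BRD9 KO and 7.43 and 7.76 CPM in LacZ libraries, and the day 1 value rests on 27.5 and 56.6 expected counts in the BRD9 KO libraries. No group had enough libraries to look for single libraries apart from the others.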

How the results depend on the processing

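The TRIP13 difference between the guides kept its sign on days 1, 2 and 3 under every alternative run. On log2(TPM + 1) with limma it was -0.45, -0.23 and, on day 5, -0.0297, and with no filter on low counts the day 5 value was 0.0063. Without 1 library it ranged from -0.41 to -0.37 on day 1, -0.19 to -0.10 on day 2, -0.26 to -0.14 on day 3 and -0.0021 to 0.0032 on day 5. Of the 10 genes, limma called 0 on days 1, 2, 3 and 5. On day 5 the count was also 0 with DESeq2, with no filter, with the contrast's libraries alone and with the replicate block within day. In LacZ cells, day 5 minus day 1, DESeq2 and limma each called 1 gene. Leaving out 1 library gave 1 to 1 called on day 1, 0 to 1 on day 2, 1 to 3 on day 3, 0 to 0 on day 5, 1 to 1 for LacZ and 3 to 4 for BRD9 KO day 5 minus day 1. For DESeq2, 6 of the 10 genes had no adjusted p on days 1 and 2. Signs turned with limma for PLEKHG4B (0.0003) and CCDC127 (-0.12) in LacZ and for PLEKHG4B (0.072), CCDC127 (-0.22), EXOC3 (0.0095) and SLC12A7 (0.13) in BRD9 KO day 5 minus day 1, none called in either fit. Without 1 library they turned for EXOC3 in LacZ (0.028 and 0.0085; range -0.0799 to 0.028) and, in BRD9 KO, for CCDC127 (-0.02 and -0.041; range -0.041 to 0.093), EXOC3 (0.058; range -0.12 to 0.058) and SLC12A7 (0.027; range -0.23 to 0.027). The causes were not tested.

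No pairing was taken from the replicate numbers, since the deviations of same-numbered BRD9 KO and LacZ libraries correlated at -0.0123, -0.0489, -0.0245 and -0.0176 on days 1, 2, 3 and 5, and over the 6273 genes whose log2 CPM averaged above 5 at -0.0435, -0.1183, 0.1014 and 0.1766. With the replicate block within day the TRIP13 values were -0.39, -0.14, -0.20 and 0.0014, and 1, 1, 2 and 0 of the 10 genes were called; with the block across days 1, 1, 2 and 1. With 2 libraries per group, differences of the least counted genes, ZDHHC11, TPPP and CEP72, had the largest standard errors, 0.12 to 0.17 between the guides.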
